A study of Homo sapiens with 9 samples.

Results

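KHSRP, FUBP1 and FUBP3 are the 3 genes of the human far upstream element binding family, and each has 1 row among the 25540 gene symbols of the expression table. They are taken by their names as a family, with earlier results of these data known, and all 3 were among the 10939 genes abundant enough to test, those with a mean of at least 1 TPM (a transcript's share of its library after scaling for length) over the 9 libraries. The RNA came from CAL-1, an established human leukemia line of the plasmacytoid dendritic cell lineage, from a disease named blastic plasmacytoid dendritic cell neoplasm. In 2 groups of 3 libraries, labelled KHSRPi#1 and KHSRPi#2 and given the genotype KHSRP knockdown, KHSRP had been repressed by CRISPR interference, in which a catalytically dead Cas9 is led by a guide RNA to a gene to hold back its transcription. The control group of 3 libraries is labelled NTC, with the genotype WT. What distinguishes KHSRPi#1 from KHSRPi#2 is not stated in the labels, nor whether the cells were clones, how long the repression lasted, or whether replicates were separate cultures, so the spread between replicates may be technical.

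The proteins of this family bind single-stranded nucleic acid through a row of KH domains. FUBP1, far upstream element binding protein 1, takes its name from an element upstream of MYC that it binds to drive transcription, and it also binds RNA and takes part in splicing. KHSRP, also called FUBP2 or KSRP, is best known for binding AU-rich elements in the 3' UTR of short-lived mRNAs and recruiting the machinery that degrades them, and it also promotes the processing of some microRNA precursors. FUBP3 is the least studied of the family and binds the same kinds of sequence. A question the knockdown of one paralog raises is whether the mRNA of the others changes with it.

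The reference annotation (GENCODE 29, on hg38) places the genes on 3 chromosomes, KHSRP at chr19:6413348-6424794 on the minus strand, FUBP1 at chr1:77944055-77979110 on the minus strand and FUBP3 at chr9:130578965-130638352 on the plus strand. CRISPR interference works best close to the start of transcription, so the 250 bases before the RefSeq start of KHSRP are shown (GRCh38.p14, chr19:6424812-6425061, minus strand). The sources used here do not say where the guides bind. Capitals mark 3 matches to the CCAAT box, which lie on the opposite strand and so read ATTGG.
KHSRP: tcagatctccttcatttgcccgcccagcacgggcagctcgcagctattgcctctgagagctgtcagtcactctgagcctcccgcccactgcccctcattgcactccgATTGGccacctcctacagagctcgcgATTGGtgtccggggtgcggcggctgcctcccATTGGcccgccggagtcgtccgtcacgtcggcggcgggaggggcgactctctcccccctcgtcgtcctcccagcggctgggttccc
The window has a GC content of 67.6%, against a median of 58% over 35116 RefSeq promoter windows of that length. On both strands, CCAAT was found 3 times (at least once in 32% of all windows) and the GC box CCGCCC 2 times (42.6% of windows). The E-box CACGTG (6.34% of windows), the ETS site CCGGAAG (8.52%) and the cyclic AMP response element TGACGTCA (1.65%) were not found in the KHSRP window. A match is only a match of letters. The promoter table held windows for 2 of the 3 members, KHSRP and FUBP3.

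Because KHSRP is known for AU-rich elements, the 3' UTR of 1 coding transcript per gene (the principal one in the annotation, the longest where several were) was searched, on the mRNA strand, for the pentamer ATTTA that these elements are built from. The 764-base 3' UTR of KHSRP itself held 0 copies, the 361-base 3' UTR of FUBP1 held 1 and the 1330-base 3' UTR of FUBP3 held 4. Other transcripts were not searched. The annotated FUBP1 gene runs on to chr1:77944055, beyond the site shown, so the FUBP1 counts may leave out annotated 3' sequence. The sites of the paralogs are written here 5' to 3', as DNA letters of the mRNA strand, with the pentamer in capitals. They lie at chr1:77948530-77948558 for FUBP1 and, in order, at chr9:130637136-130637164, chr9:130637434-130637462, chr9:130637462-130637490 and chr9:130638000-130638028 for FUBP3.
FUBP1: tttgtttttagtATTTAgtgtagatgtac
FUBP3 site 1: gtgaaacactatATTTAgattaacggaat
FUBP3 site 2: ttttaaagcagtATTTAagtattcttaaa
FUBP3 site 3: atgtgtaaattcATTTAatgttttacttc
FUBP3 site 4: taaataattttgATTTAatgaaagggata
None of the 5 sites extends to the heptamer TTATTTA, which contains the pentamer. Among tested genes outside the family with 3' UTRs of similar length (a ratio of 0.8 or nearer to 1 between the shorter and the longer), 69.8% of 1157 held at least 1 ATTTA for the length of KHSRP, 45.6% of 934 for that of FUBP1 and 82.2% of 1373 for that of FUBP3, and 34.4% of the last held 4 or more. The 3' UTRs of FUBP1 and FUBP3 were 72% and 70% A or T, against medians of 52.9% and 58.2% in genes of such lengths, and that of KHSRP was 56.7%, against 55.4%. The let-7 seed match CTACCTC was found in none of the 3.

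Before the results, some facts of the series touch them. TPM holds no read totals, so the depth in reads is unknown and precision rests on the replicates. The replicate 3 library of every group stood apart from replicates 1 and 2 on principal component 1 (38.3% of the variance), so the members' results are also given within replicates 1 and 2, within replicate 3, or with a term for replicate 3. Each group holds 1 such library. The label of the cells matched their markers in part. Of 15 plasmacytoid dendritic cell genes, 13 had a mean of at least 1 TPM, and all 15 summed to between 4497 and 5088 TPM in the knockdown and between 4363 and 4897 TPM in NTC, with IRF8 the largest part at 2534 and 2479 TPM. Of the 13, 0 passed in the limma fit without covariates, where 0.0823% of all tested genes were called. An unadjusted p under 0.05 was found there for 5 of the 13 and for 7.93% of all tested genes. With the replicate 3 term 4 of the 13 rose, where 1.76% of all tested genes were called. These were GZMB at 83.5 TPM in the knockdown and 41.2 TPM in NTC (adjusted p = 8.56e-08 with the term and 0.310 without), CLEC4C at 72.9 and 56.7 TPM, IRF7 at 17.5 and 13.6 TPM, and TCL1A at 899 and 802 TPM. Of the other 2 markers, LILRA4 averaged 1.01 TPM in the knockdown and 0.617 TPM in NTC, and IL3RA was listed at 0 in all libraries. How reads were assigned is not stated, so the listed 0 alone does not show that IL3RA mRNA was absent. The 5 T cell genes, of which 0 reached 1 TPM and CD3D was at 0, summed to between 0.0773 and 0.235 TPM in the knockdown and between 0.105 and 0.187 TPM in NTC. The other lists were led by LYZ (monocyte list, 1 of 5, with FCN1 and S100A9 at 0), PAX5 and CD79A (B cell list, 2 of 5) and NKG7 and GNLY (NK cell list, 2 of 5, NCR1 at 0). Their summed levels overlapped between knockdown and NTC, at 37.1 to 81.5 and 36.9 to 91.0 TPM for the monocyte list, 3.64 to 5.49 and 3.63 to 5.32 TPM for the B cell list, and 5.95 to 10.1 and 9.02 to 11.9 TPM for the NK cell list. The part of these marker levels in the results was not tested.

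KHSRP, the targeted gene, was measured first. It was at 35.09, 35.08 and 35.06 TPM in KHSRPi#1, at 35.8, 33.7 and 36.5 TPM in KHSRPi#2, and at 253, 244 and 216 TPM in NTC (replicates 1, 2 and 3). All 6 knockdown libraries lay far below all 3 NTC libraries, a placing that 1.57% of tested genes shared, and NTC replicate 3 was the lowest of the controls. In rank, KHSRP stood between places 3827 and 4016 by TPM in the knockdown libraries and between places 542 and 652 in NTC. On the log2(TPM + 1) scale, which understates changes of low genes, KHSRP fell by 2.72 in KHSRPi#1 (SE 0.06) and by 2.71 in KHSRPi#2 (SE 0.06), each against NTC. It had the lowest fold change of all tested genes in both comparisons (adjusted p = 7.49e-09 and 7.76e-09, limma with Benjamini-Hochberg adjustment over all tested genes). KHSRP was thus left at 14.2% to 15.4% of its NTC mean. Fewer cells with KHSRP mRNA and less of it per cell cannot be told apart in bulk RNA.

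**Figure D1:**
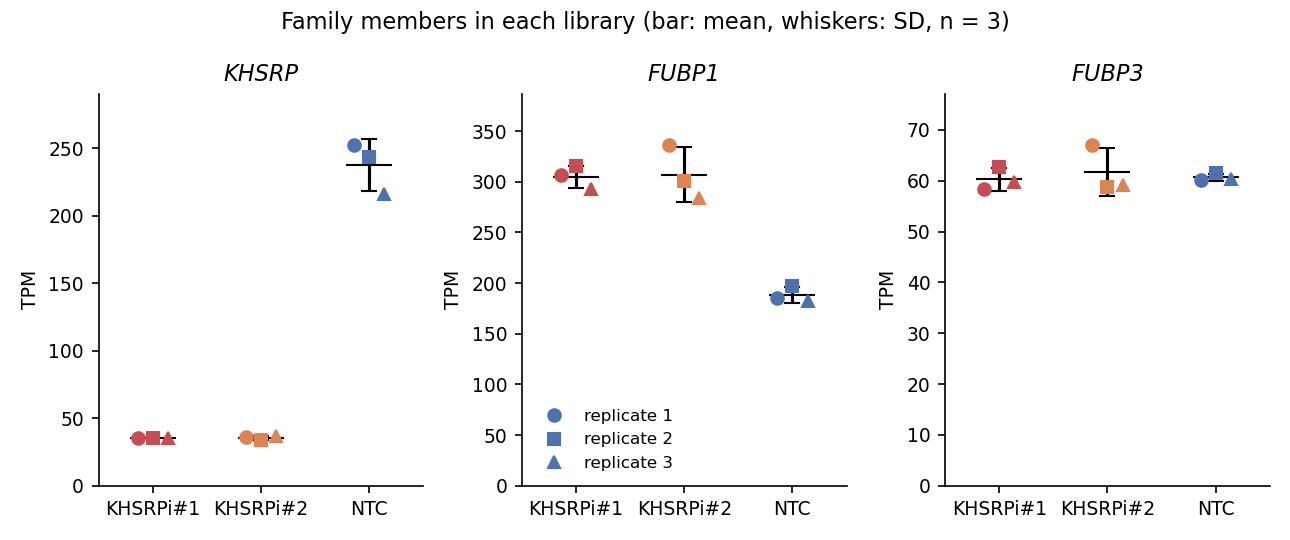
TPM of KHSRP, FUBP1 and FUBP3 (one panel each, axes from 0) in the 3 libraries of KHSRPi#1, KHSRPi#2 and NTC; symbols mark replicate numbers, horizontal bars the mean and whiskers the SD (n = 3). KHSRP lies at 33.7 to 36.5 TPM in the knockdown libraries and at 216 to 253 TPM in NTC, FUBP1 lies at 284 to 337 TPM and at 182 to 197 TPM, and FUBP3 overlaps between the groups.

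FUBP1, the paralog known for driving MYC transcription, moved the other way. It was at 306, 315 and 293 TPM in KHSRPi#1, at 337, 301 and 284 TPM in KHSRPi#2, and at 185, 197 and 182 TPM in NTC. The lowest knockdown library was well above the highest NTC library, so the groups did not overlap in either knockdown. Means were 305 ± 11.1 TPM in KHSRPi#1 and 307 ± 27.0 TPM in KHSRPi#2, against 188 ± 8.19 TPM in NTC (SD, n = 3 each). FUBP1 rose by 0.69 on the log2 scale in KHSRPi#1 (SE 0.07, limma adjusted p = 0.00379) and by 0.70 in KHSRPi#2 (SE 0.07, adjusted p = 0.00343), or 1.62-fold and 1.63-fold. Without the filter on low genes, where the 25540 symbols are all tested, these comparisons gave the same fold changes with adjusted p = 0.112 and 0.0783, and the mean of both knockdowns stayed under 0.05 (0.0436).

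Against the rest of the transcriptome, 1 of the 2 paralogs, FUBP1, was called on average over both knockdowns. KHSRP was called as well, but as the target of the repression its call follows from the design. Of all tested genes 0.0823% were called, 9 genes with FUBP1 and KHSRP included. They were 5 higher and 4 lower, or 4 higher and 5 lower after rescaling by median ratios. Leaving out 1 library gave 3 to 7 called genes, with KHSRP and FUBP1 always among them. With the term for replicate 3 FUBP1 and KHSRP were again called, where 1.76% of genes were. In each single knockdown FUBP1 and KHSRP were called as well, where 0.0548% of genes were in KHSRPi#1 and in KHSRPi#2. In the fit without covariates FUBP1 had the second smallest p-value of all tested genes after KHSRP in both. With the replicate 3 term, averaged over both knockdowns, GZMB (limma adjusted p = 8.56e-08) stood ahead of FUBP1 (4.28e-06). By size the FUBP1 fold change, averaged over both knockdowns without covariates, was 0.70 and ranked 10th from the top. The 9 genes above it had a mean of 69.4 TPM or less. Of those 9, 1 was called without covariates, LINC00565, and 4 had all 6 knockdown libraries above all 3 NTC libraries. GZMB, the most abundant of the 9, rose by 0.99 and was called with the replicate 3 term but not without it. Among the 1533 tested genes with a mean of at least 100 TPM FUBP1 had the highest fold change, and the next one stood at 0.37. That cut lies above the means of all 9 genes with a higher fold change, so this first rank depends on it. The 6 knockdown libraries of FUBP1 were all above the 3 NTC libraries, which held for 3.1% of tested genes.

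**Figure D2:**
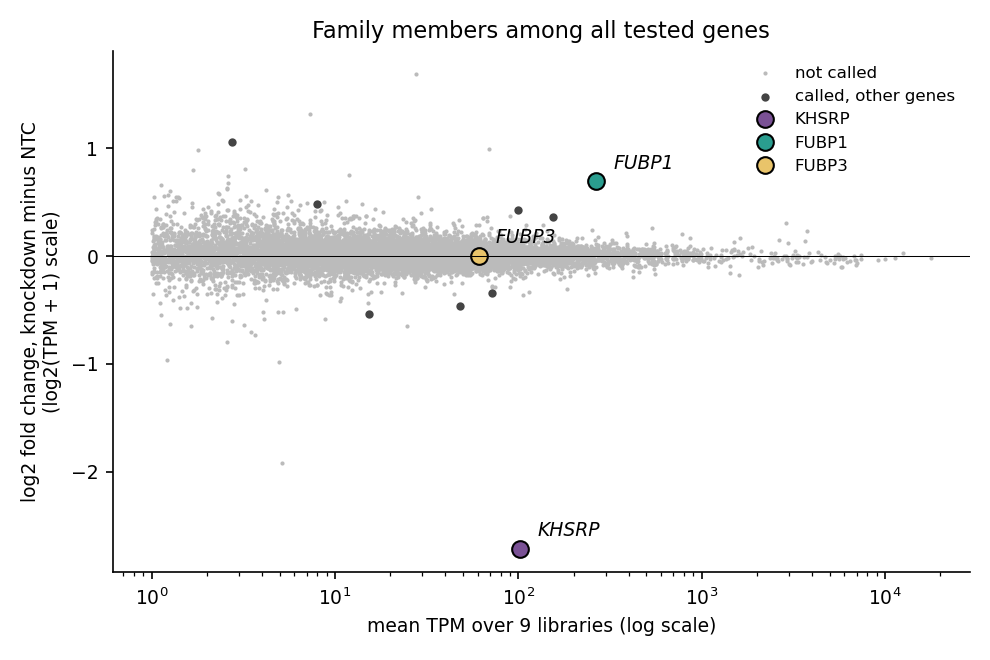
Log2 fold change, knockdown (mean of KHSRPi#1 and KHSRPi#2) minus NTC, against the mean TPM over 9 libraries (log axis) for 10939 tested genes, with called genes in dark grey and the family in colour. KHSRP stands at the bottom at -2.72, FUBP1 at 0.70 above the other genes with a mean of at least 100 TPM, and FUBP3 at 0.01 in the bulk.

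The rise of FUBP1 was seen at each replicate number. Set against NTC of the same number, its log2 fold change was 0.73, 0.67 and 0.68 in KHSRPi#1 (replicates 1, 2 and 3) and 0.86, 0.60 and 0.64 in KHSRPi#2. It was 0.72 within replicates 1 and 2 (4 knockdown libraries against 2) and 0.66 within replicate 3 (2 against 1), where no test was run. KHSRP gave -2.79 and -2.56 for these 2 sets of libraries. The log2 level of FUBP1 in replicate 3 minus that in replicates 1 and 2 was -0.11 across groups, which did not pass (adjusted p = 0.0691), where 30.3% of tested genes differed. With the replicate 3 term the FUBP1 fold change kept its value of 0.70, with an SE of 0.04 in place of 0.06 (adjusted p = 4.28e-06, against 0.000905 without the term).

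The 2 knockdowns were also set against each other. KHSRPi#2 minus KHSRPi#1 was 0.01 for KHSRP (95% interval -0.13 to 0.15), 0.01 for FUBP1 (-0.14 to 0.15) and 0.03 for FUBP3 (-0.11 to 0.17) on the log2 scale. None passed (adjusted p = 1.00 for each), and limma called 0 of all tested genes (0%) between the knockdowns, with 115 at an unadjusted p under 0.05. With 3 libraries each, these data leave room for differences inside these intervals. The signs of the KHSRP and FUBP1 differences turned under median-ratio rescaling.

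**Figure D3:**
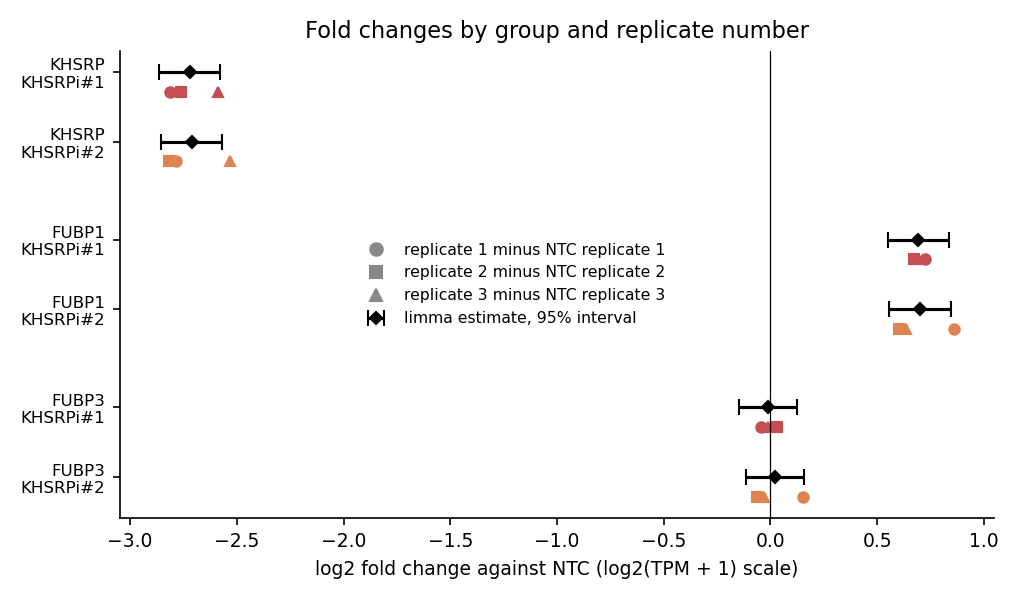
Log2 fold change against NTC (log2(TPM + 1) scale) for each member in KHSRPi#1 and KHSRPi#2; black diamonds with whiskers are limma estimates with 95% intervals, coloured symbols are single libraries minus the NTC library of the same number. KHSRP lies between -2.82 and -2.53 in single libraries, FUBP1 between 0.60 and 0.86, and FUBP3 spans 0.

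FUBP3, the third paralog, did not pass in any comparison. It was at 58.4, 62.8 and 59.7 TPM in KHSRPi#1, at 67.1, 58.8 and 59.1 TPM in KHSRPi#2, and at 60.2, 61.5 and 60.3 TPM in NTC. Knockdown libraries lay on both sides of the controls, and KHSRPi#2 replicate 1, the highest, was also the library with the most FUBP1. The average fold change was 0.01 on the log2 scale (95% interval -0.11 to 0.12, adjusted p = 0.987), so these data leave room for a change of up to 0.12 either way, well short of the 0.70 of FUBP1. Within replicates 1 and 2 it was 0.0188, and within replicate 3 it was -0.0205. The sign of the average turned negative under median-ratio rescaling (-0.016) and quantile normalization (-0.0033). An exact permutation test (two-sided, all 84 divisions of 9 libraries into 6 and 3) of its TPM gave p = 0.952.

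The 2 paralogs were compared directly by their ratio within a library, which does not depend on how libraries are scaled. FUBP1 was 5.24, 5.02 and 4.90 times FUBP3 in KHSRPi#1, 5.01, 5.11 and 4.80 times in KHSRPi#2, and 3.07, 3.21 and 3.02 times in NTC. The lowest knockdown ratio exceeded the highest NTC ratio. The log2 ratio averaged 2.33 ± 0.04 in the 6 knockdown libraries and 1.63 ± 0.05 in the 3 NTC libraries (SD), a difference of 0.69, with an exact two-sided permutation p of 0.0238, the smallest that 6 against 3 libraries can give. FUBP1 and FUBP3 therefore differed in their response.

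The order of the family's levels in TPM changed with the knockdown. TPM is scaled for length, so the members were set side by side. The length used for each gene is not stated, and the order, shares and sums rest on it. In KHSRPi#1 and KHSRPi#2 the order was FUBP1, FUBP3, KHSRP in each of the 6 libraries, with 7.77 to 9.39 times as much FUBP1 as KHSRP and 0.534 to 0.618 times as much KHSRP as FUBP3. In NTC the order was KHSRP, FUBP1, FUBP3 in each of 3 libraries, with FUBP1 at 0.732 to 0.843 times KHSRP and KHSRP at 3.58 to 4.19 times FUBP3. The member placed higher in the order exceeded the next one in every library of its group, FUBP1 being 4.80 to 5.24 times FUBP3 in the knockdown and 3.02 to 3.21 times FUBP3 in NTC.

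As a share of the family's summed TPM, FUBP1 made up 76.1% ± 0.729 in the knockdown (n = 6) and 38.7% ± 1.38 in NTC (n = 3). FUBP3 made up 15.2% ± 0.345 in the knockdown and 12.5% ± 0.571 in NTC. The remaining share, that of KHSRP, was 8.78% ± 0.511 and 48.8% ± 1.83. Shares sum to the whole, so a lower KHSRP share alone raises the others, as for FUBP3, whose own TPM did not pass. For both paralogs the shares of the groups did not overlap (exact two-sided permutation p = 0.0238 each, the smallest possible). The fall of KHSRP alone pushes both shares up, so this test cannot show a change in the paralogs themselves.

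The summed TPM of the family stayed below control. It was 400, 413 and 388 TPM in KHSRPi#1, 439, 393 and 379 TPM in KHSRPi#2, and 498, 502 and 458 TPM in NTC. The highest knockdown library, KHSRPi#2 replicate 1, came close to the lowest control, NTC replicate 3, without overlap. Means were 402 ± 21.6 TPM in the knockdown and 486 ± 24.2 TPM in NTC, a difference of -84.1 TPM (exact two-sided permutation p = 0.0238, the smallest possible). The total holds KHSRP, whose fall follows from the design, so this test does not measure a response of the paralogs. Against the NTC means, KHSRP was lower by between 201 and 204 TPM in single knockdown libraries, and FUBP1 was higher by between 95.6 and 148 TPM. The FUBP1 gain thus equalled 58.4%, 62.8% and 51.9% of the KHSRP loss in KHSRPi#1, and 73.7%, 55.2% and 47.6% in KHSRPi#2. These percentages count mRNA and rest on the gene lengths behind the TPM, which are not stated. The percentages also use the mean of all 3 NTC libraries and were not taken within a replicate number. NTC replicate 3 had the lowest KHSRP of the controls (216 TPM). Protein was not measured.

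**Figure D4:**
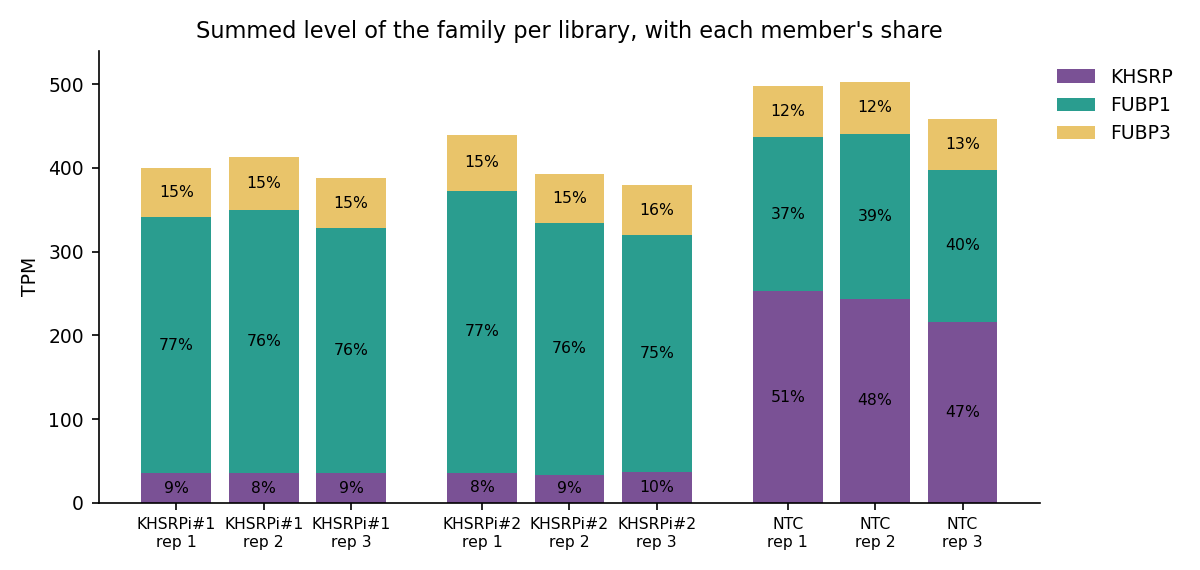
Stacked bars of TPM (from 0) for KHSRP, FUBP1 and FUBP3 in each library of KHSRPi#1, KHSRPi#2 and NTC, with each member's percent of the family total. The stacks reach 379 to 439 TPM in the knockdown and 458 to 502 TPM in NTC; FUBP1 is the largest part in the knockdown and KHSRP in NTC.

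Reads can be assigned to the wrong gene where genes share sequence. How reads were assigned is not stated, and such errors were not tested. Only the exact sequence shared by the members was compared. Between their principal coding transcripts the longest identical stretch was 20 bases for KHSRP with FUBP1, 20 for KHSRP with FUBP3 and 17 for FUBP1 with FUBP3, and 0 stretches of 30 bases were shared. KHSRP also has a processed pseudogene, KHSRPP1 at chr9:21695176-21696943, which had no row in the table. It shares an identical stretch of 91 bases with the KHSRP mRNA, and 2.58% of the 50-base stretches of that mRNA. GENCODE 29 lists 13 transcripts for FUBP1, of which 3 are labelled protein coding, 1 nonsense-mediated decay and 9 processed transcripts; values per gene do not separate them.

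In a list of 35 other genes of KH-domain proteins, which does not hold every such gene, 25 were tested and 0 were called by limma on average over both knockdowns, where 0.0823% of all tested genes were. An unadjusted p under 0.05 was found for 1 of the 25 and for 7.93% of all tested genes, so both counts are near the background and set the list apart in neither way. It had fold changes from -0.13 to 0.10 and a median of 0.0055, beside 0.018 for all tested genes. The most abundant were HNRNPK, an hnRNP protein that binds C-rich sequence, at 830 ± 25.3 TPM in the knockdown and 835 ± 18.2 TPM in NTC, and the poly(C)-binding proteins PCBP1, at 481 ± 15.3 and 511 ± 11.8 TPM, and PCBP2, at 412 ± 10.9 and 419 ± 8.62 TPM (SD, n = 6 and 3).

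Among 22 partners and regulators of KHSRP, all tested, 0 were called by limma and 2 had an unadjusted p under 0.05, again near the 0.0823% and 7.93% of all tested genes, and the median was -0.0045. This list holds the exosome subunits and the deadenylase PARN, which degrade mRNA, the microRNA enzymes DROSHA and DICER1, and the kinases MAPK14 and AKT1, which phosphorylate KHSRP. Its most abundant members were HNRNPA1, a splicing regulator, at 2953 ± 65.4 TPM in the knockdown and 3102 ± 74.9 TPM in NTC, and YWHAZ, a 14-3-3 protein, at 701 ± 25.3 and 711 ± 27.6 TPM. EXOSC9, an exosome subunit, was the 1 gene of the 56 in these lists whose knockdown libraries all lay beyond NTC, at 91.0 ± 2.41 TPM against 83.9 ± 3.93 TPM, and it did not pass (adjusted p = 0.560); 4.67% of all tested genes were placed so.

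Partners and reported targets of FUBP1 gave 0 calls by limma among the 9 tested of 12, and 0 with an unadjusted p under 0.05. Both counts are near the background of 0.0823% and 7.93% of all tested genes, and the median was -0.028. MYC, the target that gave FUBP1 its name, was at 199 ± 19.9 TPM in the knockdown and 200 ± 20.7 TPM in NTC, which differ by -0.0053 on the log2 scale (SE 0.09; adjusted p = 0.994). AIMP2, which is known to promote the breakdown of FUBP1 protein, was at 118 ± 3.00 and 123 ± 5.41 TPM, and PUF60, the repressor that binds FUBP1, at 51.3 ± 2.87 and 53.0 ± 2.30 TPM. CDKN1A, the cell cycle inhibitor p21, had the widest difference of the list at -0.24 (SE 0.19, adjusted p = 0.790). With the replicate 3 term, where 1.76% of all tested genes were called, 0 of the 56 tested genes of the 3 lists were called.

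Neighbouring genes were examined because repression can spread and because close genes can share reads where strand is not used, and the sources used here do not say whether strand was used. The 2 nearest tested genes on each side of each member, 12 in all, gave 0 calls by limma (0.0823% of all tested genes were called) and 0 with an unadjusted p under 0.05 (7.93% of all), with fold changes from -0.18 to 0.24. Not all of them were close, as PRKACB lay 6098952 bases from FUBP1 and GPR107 438796 bases from FUBP3. On chromosome 19 the nearest to KHSRP was SLC25A23, a mitochondrial carrier, 11285 bases away, at 29.1 ± 3.91 TPM in the knockdown and 33.0 ± 3.01 TPM in NTC (adjusted p = 0.719). FUBP1 has close neighbours on the opposite strand: DNAJB4, a heat shock protein whose gene starts 65 bases from that of FUBP1, was at 9.65 ± 0.829 and 8.75 ± 0.430 TPM, and NEXN, an actin-binding protein whose gene ends 160 bases from the 3' end of FUBP1, at 40.2 ± 2.33 and 37.7 ± 4.01 TPM. Their log2 fold changes of 0.12 and 0.09 (SE 0.07 each) did not pass. ASS1, argininosuccinate synthase, next to FUBP3 by 77691 bases, had 0.24 (SE 0.21) and was the 1 neighbour called with the replicate 3 term (adjusted p = 0.0078), where 1.76% of all tested genes were called.

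**Figure D5:**
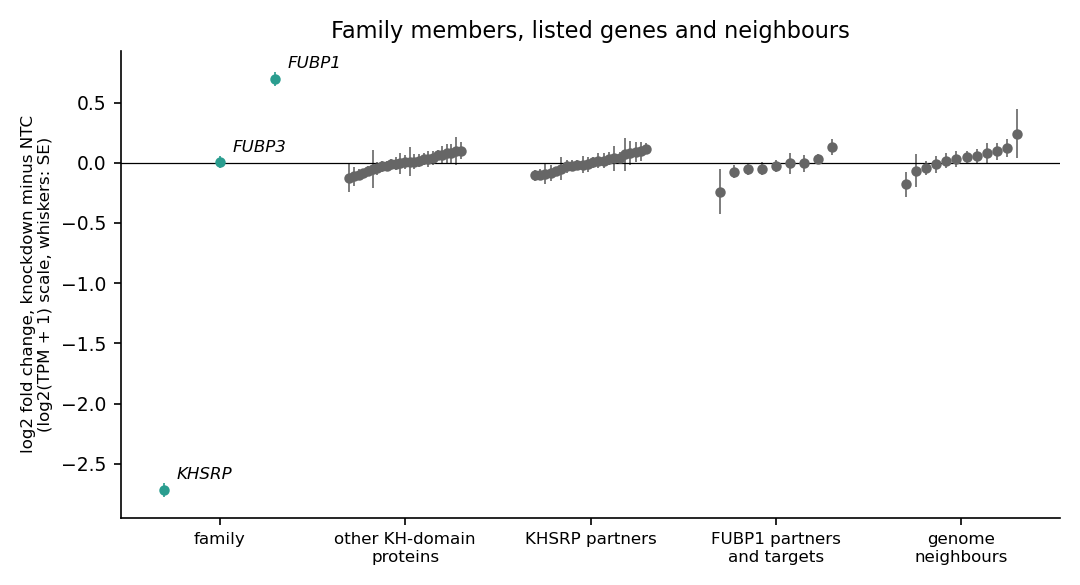
Log2 fold change, knockdown minus NTC, of the 3 family members (left, named), the tested genes of 3 lists and the 12 nearest tested neighbours; each point is a gene and whiskers are the SE. KHSRP (-2.72) and FUBP1 (0.70) lie outside the band from -0.24 to 0.24 that holds the listed genes and neighbours.

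The genes whose log2(TPM + 1) followed each member most closely over the 9 libraries were taken as the 5 with the highest Pearson r. These values are descriptions: for KHSRP and FUBP1 the libraries form 2 clusters, knockdown and NTC, so r is high for any gene that differs between them. With KHSRP they were CSTF3, a subunit of the 3' end cleavage machinery (r = 0.976), CCND1, cyclin D1 (0.971), OPN3, an opsin (0.969), DGAT1, a triglyceride synthesis enzyme (0.959) and PSPC1, a paraspeckle protein (0.944). CSTF3, at 65.7 TPM in the knockdown and 83.7 TPM in NTC, and PSPC1, at 42.7 and 59.3 TPM, fell in the knockdown (adjusted p = 0.0174 and 0.0264), and the other 3 did not pass. Both calls rest on the full set of libraries: with 1 library left out each stayed called in 2 of 9 fits (without NTC replicate 1 and without KHSRPi#1 replicate 3), with adjusted p up to 0.113 for CSTF3 and 0.171 for PSPC1. With FUBP1 they were ANXA7, an annexin (0.981), TRMT2B, a mitochondrial RNA methyltransferase (0.976), TAF9B, a TFIID-related factor (0.974), TCL1B, a relative of the TCL1A oncogene (0.970) and LINC00565, a long noncoding RNA (0.967). TCL1B, at 166 TPM in the knockdown and 129 TPM in NTC, and LINC00565, at 3.51 and 1.17 TPM, rose in the knockdown (adjusted p = 0.00901 and 0.00181). With 1 library left out LINC00565 stayed called in 9 of 9 fits and TCL1B in 7 of 9, with adjusted p = 0.0878 without NTC replicate 2 and 0.0667 without NTC replicate 3. ANXA7, at the top, was at 125 TPM in the knockdown and 109 TPM in NTC and did not pass (adjusted p = 0.204), nor did TRMT2B and TAF9B. With FUBP3, which did not split by group, they were SF3B3 (0.955), a splicing factor subunit, KDM6A (0.953), a histone demethylase, FBXO42 (0.930), GBF1 (0.925) and TMEM255A (0.924). FUBP3 itself had r = 0.219 with FUBP1.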

How the data were processed

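RNA sequencing was made from total RNA of CAL-1 cells, 3 libraries for each of KHSRPi#1, KHSRPi#2 and NTC; groups and replicate numbers come from the sample titles and columns were matched by the names in the descriptions. A single table deposited by the authors gives TPM for each gene symbol and library. Per the submitters' processing notes the genome build was hg38, and the name of the deposited table includes STAR, a read aligner. How reads were turned into gene values, the annotation and the strand setting are not stated in what was used here. No 2 libraries were identical.

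From these TPM, log2 values with a pseudocount of 1 were fitted for genes with a mean of at least 1 TPM, using limma 3.58.1 in R 4.3.3 (one fit of 3 groups without covariates, eBayes with intensity trend, two-sided, Benjamini-Hochberg adjustment over 10939 genes, threshold 0.05). The fit was also run on simulated data with independent normal errors and no replicate 3 effect, unlike these libraries. Totals, shares and ratios were compared by exact permutation tests (scipy 1.17.1, Python 3.11.15). The TPM hold no counts, so no count model was run and depth is unknown. The table's symbols were matched to GENCODE 29 for 95.2% of tested genes.

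The members, gene lists, term for replicate 3 and tests were chosen with earlier results of these data known. Named genes are the 3 members, list members that passed or else the most abundant, the 5 genes most alike to each member, and 2 tested neighbours per side; EXOSC9, CDKN1A, GZMB and the other single markers, the LINC00565 call and the neighbours singled out were picked after their values were seen. Alternatives were pseudocounts of 0.1 and 5, no filter or a mean of 5 TPM, 2 other scalings, a replicate block, a replicate 3 term, robust eBayes, array weights, fewer groups, replicates 1 and 2 only, and leaving out each library.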

Additional observations from a re-analysis of the deposited data

How the results depend on the processing

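KHSRP stayed called in every setting run (pseudocounts, filters, scalings, replicate terms, variance models, fewer libraries), with fold changes from -2.80 to -2.59. FUBP1, averaged over both knockdowns, stayed called in all of them, from 0.66 to 0.73 (adjusted p up to 0.0436); in single knockdowns it was called whichever library was left out (0.63 to 0.76, adjusted p up to 0.0434) and lost only without the filter, where 0.694 and 0.701 had adjusted p = 0.112 and 0.0783. The family total (-98.0 to -75.9 TPM), shares and the FUBP1 to FUBP3 ratio kept direction; without 1 NTC library, or in replicates 1 and 2 alone, the exact test cannot reach 0.05 and was not run. Only differences near 0 that never passed turned sign, and the cause was not tested. FUBP3 on average was -0.0155 with median-ratio rescaling and -0.0033 with quantile normalization, and ran from -0.0250 to 0.0219 when a library was left out; in KHSRPi#1 it was 0.0056 with array weights and ran from -0.0381 to 0.0134; in KHSRPi#2 it was -0.0146 with median-ratio rescaling and ran from -0.0408 to 0.0531. For KHSRPi#2 minus KHSRPi#1, KHSRP was -0.0187 (median ratio), -0.0140 (quantile) and -0.0144 (replicates 1 and 2 only) and ran from -0.0142 to 0.0428, FUBP1 was -0.0211 (median ratio) and ran from -0.0607 to 0.0623, and FUBP3 ran from -0.0315 to 0.0623.

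Libraries sharing a number were not all alike. Deviations from group means correlated at 0.622 to 0.628 for replicate 3, 0.0398 to 0.324 for replicate 1 and 0.208 to 0.228 for replicate 2. Of 9 libraries, 4 matched best with their own number, and the number was not taken as a pairing. The deviations were taken within groups in which replicate 3 stood apart, so this count cannot exclude a pairing. With a replicate block FUBP1 kept 0.697 (adjusted p = 1.42e-05), KHSRP -2.72, FUBP3 0.0057, the family total -84.1 TPM, and no call on a member changed. Over all genes, 9 were called on average over both knockdowns, 152 with the block, 192 with the replicate 3 term, and 3 to 7 when a library was left out (7 without KHSRPi#1 replicate 3, 6 without NTC replicate 1, and 3 to 5 without any of the others). For that average, a fit of only the groups compared is the fit of all groups.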

Other observations

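The KHSRP values of KHSRPi#1 were unusually alike, at 35.09, 35.08 and 35.06 TPM, a coefficient of variation of 0.0381%. Among 2343 tested genes within 1.5 times that mean in KHSRPi#1, KHSRP had the smallest coefficient of variation, and their median was 5.59%. In KHSRPi#2 the coefficient for KHSRP was 4.21%, beside a median of 6.28% for genes of like level. FUBP1 had 3.65% in KHSRPi#1, 8.80% in KHSRPi#2 and 4.36% in NTC, and FUBP3 had 3.73%, 7.65% and 1.20%. This was noticed after seeing the values and was not tested; the SD of that group alone is not a guide to the error of KHSRP, for which the fit over all groups gave an SE of 0.06 on the log2 scale.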
